A study of Pinus pinaster with 21 samples.

Results

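Small RNA of maritime pine roots (Pinus pinaster, a conifer) was compared between 24 h and 2 h after the seedlings had been irrigated with 0.1 mM ammonium, the lower of the doses used. The comparison rests on 5 of the 21 libraries of the series, namely replicates 1, 2 and 3 at 2 h and replicates 2 and 3 at 24 h, and replicate 1 at 24 h is reported separately. It covers the 879 of 32711 identifiers that have a count above 0 in all 5 libraries, and each identifier stands for a small RNA. In the study, seedlings of 1 month received a nutrient solution without nitrogen, and 3 days later 80 mL of NH4Cl at 0.1 mM or 3 mM, or of plain water. Roots were frozen before this irrigation or 2 h and 24 h after it, and the experiment was run 3 independent times. All seedlings thus came from a nitrogen-free solution, those given water included, and each library is a pool of roots from 10 seedlings of the Segura-Alcaraz provenance. The replicate number is the number of the experiment, so libraries with the same number come from the same run.

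Plant microRNAs are short RNAs that guide the cutting or the translational repression of matching messenger RNAs, and a library of this size range also holds small interfering RNAs. Several conserved plant microRNA families are known to respond to nutrient supply and to act on auxin signalling, root branching and nutrient transporters. Conifers grow on soils where ammonium is a main form of inorganic nitrogen, and a root takes it up through dedicated membrane transporters. The deposited table names its small RNAs by serial labels such as MIR_1205 and pairs them with no family, sequence or position. No role can therefore be given to any of them, no sequence is printed, and the root label could not be checked against marker RNAs.

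The 5 libraries held 6409777 to 9603954 counts in all and listed 4117 to 5408 identifiers each. The 879 identifiers carried 64.1% to 71.8% of these counts, with a median count per identifier of 655 to 1003 and a lowest count of 7. In the whole table no count lies between 0 and 5 and 86.6% of the cells are 0, so that a 0 is read as not listed and not as absent. A small RNA that appeared or disappeared between the times could not be among the 879. Each of the 5 libraries listed 72.5% to 79.7% of widely listed identifiers, those present in at least 10 of the other libraries, against 17.4% for replicate 1 at 24 h, which had 3086103 counts. Levels are given as CPM, the usual scaled count, taken here over the summed counts of the 879 identifiers, with TMM scaling factors between 0.854 and 1.09. In a bulk root sample, a change in the amount of RNA per cell and a change in the share of cells that hold it cannot be told apart.

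Between 2 h and 24 h at 0.1 mM ammonium, no small RNA passed the test. The quasi-likelihood F test of edgeR with the experiment as a block called 0 of 879 identifiers (0% of those tested) at an adjusted p under 0.05, and the smallest adjusted p was 0.37. Before adjustment 83 identifiers (9.44%) had a p under 0.05, and 44 would if none differed. Of these, 42 (4.78% of those tested) were higher and 41 (4.66%) were lower at 24 h. limma and limma-voom with the same block also called 0 (79 and 83 before adjustment), and DESeq2 called 4 (42 before adjustment). The block leaves 1 residual degree of freedom, and replicate 1 at 2 h has no partner at 24 h and does not enter the difference. The difference is thus that within experiments 2 and 3.

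Over all 879 small RNAs the differences were small in size. The median absolute difference between the times was 0.17 log2 units, with a median standard error (SE) of 0.15, and 426 identifiers (48.5%) were higher and 453 lower at 24 h. With scaling to library totals the split was 328 higher (37.3%) and 551 lower. For 762 identifiers (86.7%) the whole 95% interval was between -1 and 1. The estimate itself exceeded 1 log2 unit for 7 of the 879, 2 higher (MIR_10 and MIR_7040) and 5 lower (MIR_839, MIR_1205, MIR_5009, MIR_865 and MIR_4332) at 24 h. Sizes and intervals are limma estimates with the block.

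The libraries differed between experiments about as much as between times. Within experiment 2 the median absolute difference between 24 h and 2 h was 0.19 log2 units, and within experiment 3 it was 0.21. Between experiments 2 and 3 at the same time it was 0.19 at 2 h and 0.22 at 24 h. The 2 h library of experiment 1 was farther from the others, at 0.25 and 0.28 from the other 2 h libraries and at 0.25 and 0.29 from those at 24 h.

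**Figure D1:**
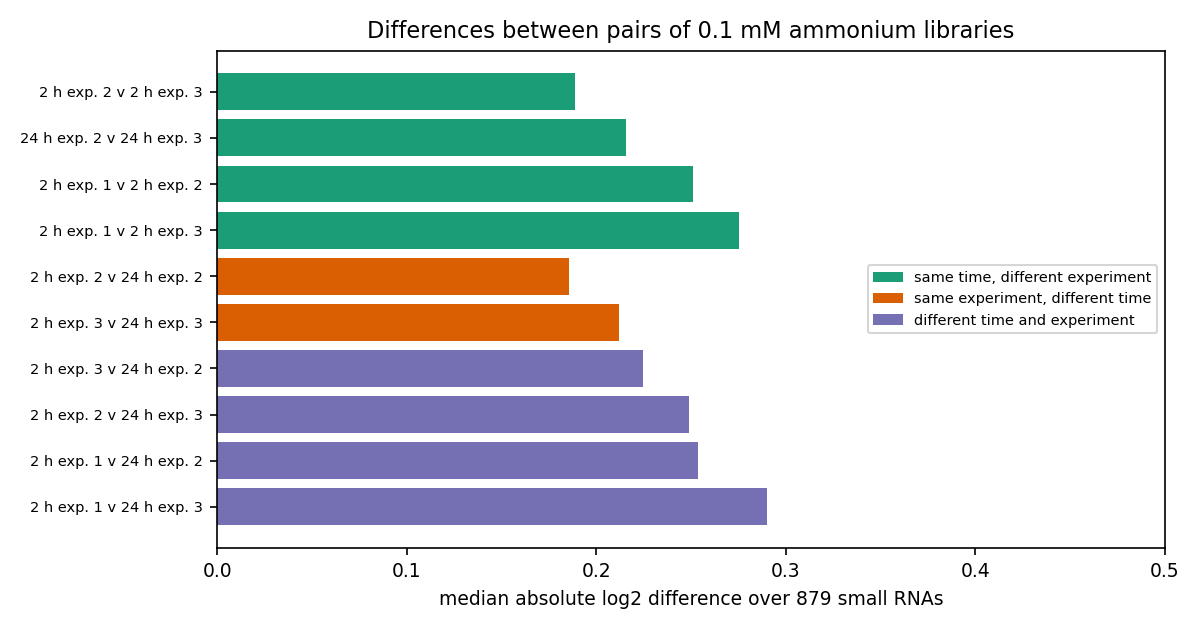
Median absolute log2 difference (x axis) over 879 small RNAs for each of the 10 pairs of 0.1 mM ammonium libraries, named by time and experiment; colours mark pairs of the same time, of the same experiment or of neither. The pairs that differ in time within an experiment lie at 0.19 and 0.21, and the pairs of the same time from different experiments at 0.19 to 0.28.

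The groups of libraries did not overlap for 203 identifiers (23.1% of those tested). At 24 h, 95 of them (10.8%) lay above and 108 (12.3%) lay below all 2 h libraries, and their median absolute difference was 0.32 log2 units. There are 10 ways to assign the times to these libraries, so exchangeable libraries would separate in a share of 0.1 in each direction. Both shares are close to that, and the count is not read as an effect of time. Among the 83 with an unadjusted p under 0.05, 57 did not overlap, and the median absolute difference was 0.55 log2 units. The groups of the other 26 overlapped.

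The identifiers were also described by abundance, with no test. Within experiment 2 the median absolute difference rose from the most to the least abundant class, and within experiment 3 it had no steady order. The 16 identifiers with a mean of at least 10000 CPM held 54.1% of the member counts, and their median absolute difference was 0.05 log2 units within experiment 2 and 0.20 within experiment 3. For the 115 identifiers of 1000 to under 10000 CPM the corresponding values were 0.16 and 0.25, and for the 378 of 100 to under 1000 CPM they were 0.17 and 0.19. They were 0.23 and 0.23 for the 335 of 10 to under 100 CPM, and 0.25 and 0.28 for the 35 under 10 CPM. Between experiments 2 and 3 at 2 h, the median absolute difference was 0.23, 0.19, 0.16, 0.21 and 0.34 log2 units from the most to the least abundant class. Unadjusted p values under 0.05 were found for 1 of the 16 most abundant (6.25%), 7 of the 115 (6.09%), 36 of the 378 (9.52%), 33 of the 335 (9.85%) and 6 of the 35 least abundant identifiers (17.1%). The number higher at 24 h was close to the number lower in each class, at 10 and 6, 57 and 58, 182 and 196, 157 and 178, and 20 and 15.

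**Figure D2:**
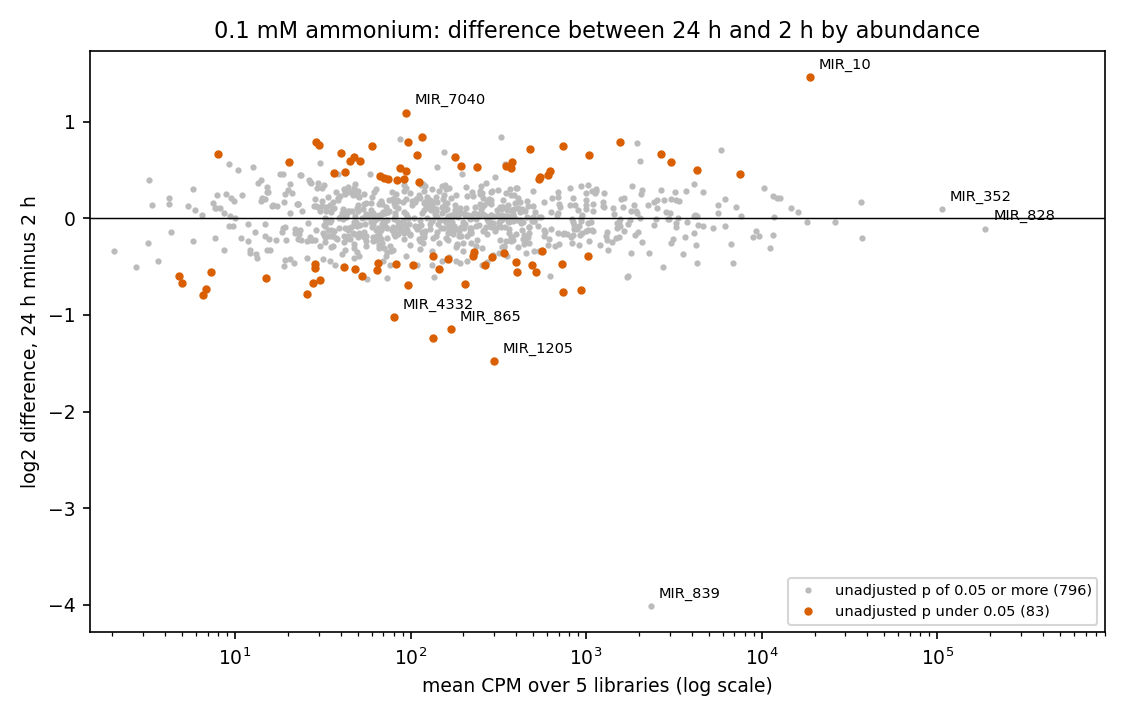
Log2 difference between 24 h and 2 h (y axis) against the mean CPM over the 5 libraries (x axis, log scale) for the 879 small RNAs of 0.1 mM ammonium roots; orange points have an unadjusted p under 0.05 in edgeR (83), grey points do not (796). Most points lie within 1 log2 unit of 0, MIR_10 stands out among the abundant ones at 1.46, and MIR_839, at -4.01, has a wide interval and is grey.

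The identifiers described next are the 10 with the smallest p and the 10 with the largest difference among those whose groups did not overlap, and none of them passed the edgeR test. MIR_1205 had the smallest p. It stood at 307, 315 and 564 CPM in the 2 h libraries of experiments 1, 2 and 3, and at 125 and 182 CPM in the 24 h libraries of experiments 2 and 3. Both 24 h values lay below all 2 h values. The difference was -1.48 log2 units (SE 0.14, 95% interval -1.89 to -1.08, edgeR adjusted p = 0.37), with -1.33 within experiment 2 and -1.63 within experiment 3. In DESeq2 its adjusted p was 7.3e-06, and over the alternatives it ranged from 7.3e-06 to 1, with a negative difference in 19 of 19. The alternatives reuse the libraries by which MIR_1205 was chosen, which favours an equal sign.

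MIR_865 had the next smallest p. Its 2 h libraries held 202, 211 and 238 CPM and its 24 h libraries 94.2 and 109 CPM, with no overlap. The difference was -1.15 log2 units (SE 0.13, interval -1.50 to -0.79, edgeR adjusted p = 0.411), and it was almost equal in the experiments, at -1.16 and -1.13. DESeq2 gave it an adjusted p of 0.00928, the lowest over its alternatives, which reached 1.

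MIR_4332 stood at 63.2, 121 and 105 CPM at 2 h and at 62.2 and 49.8 CPM at 24 h. The groups did not overlap, but the 2 h library of experiment 1 was close to the higher 24 h library. It differed by -1.02 log2 units (SE 0.13, interval -1.40 to -0.64, edgeR adjusted p = 0.456). MIR_4807 stood at 377, 452 and 530.4 CPM at 2 h and at 309.5 and 360.1 CPM at 24 h, also without overlap, and differed by -0.55 log2 units (SE 0.12, adjusted p = 0.456).

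The less abundant MIR_5478 stood at 34.9, 27.2 and 32.5 CPM at 2 h and at 17.0 and 17.4 CPM at 24 h. It differed by -0.79 log2 units (SE 0.16, interval -1.25 to -0.33, edgeR adjusted p = 0.456). MIR_565, at the lower end of abundance, had 6.58, 8.35 and 8.25 CPM at 2 h and 5.76 and 3.94 CPM at 24 h, a difference of -0.79 log2 units (SE 0.24, adjusted p = 0.517). Neither overlapped between the times. MIR_5009 was the fourth identifier that DESeq2 called (adjusted p = 0.0323, edgeR adjusted p = 0.456). It had 122, 147 and 227 CPM at 2 h and 45.6 and 132 CPM at 24 h, so its groups overlapped, and it was chosen after its values were seen.

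The largest difference of all, that of MIR_839, rested on 1 library. MIR_839 stood at 2949, 3046 and 3630 CPM at 2 h (3629.8 in experiment 3) and at 1985 CPM in experiment 2 at 24 h, but at 21.3 CPM in experiment 3 at 24 h. That last library had 119 counts, where the other 4 had 13439 to 21569. The difference was -4.01 log2 units (SE 1.72, interval -8.82 to 0.80, edgeR adjusted p = 0.64), with -0.62 within experiment 2 and -7.41 within experiment 3. Without replicate 3 at 24 h and without the block it was -0.69 log2 units (edgeR adjusted p = 0.979). Without replicate 2 at 24 h, which leaves the low library alone in its group, MIR_839 was the only identifier that edgeR called (-7.21 log2 units, adjusted p = 0.00244).

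MIR_10 was the most abundant of the 10 with the smallest p and had the largest positive difference of all 879. In experiment 2 it went from 9300.4 to 20181 CPM and in experiment 3 from 7073 to 24643 CPM. In experiment 1 it already stood at 33471 CPM at 2 h, above both 24 h libraries, and the 24 h library of that experiment did not list it. The blocked difference was 1.46 log2 units (SE 0.23, interval 0.83 to 2.09, edgeR adjusted p = 0.456), and DESeq2 gave an adjusted p of 7.3e-06 in a range of 7.3e-06 to 1 over its alternatives. Without the block, which lets the 2 h library of experiment 1 enter the difference, it was 0.43 log2 units (adjusted p = 0.918).

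MIR_7040 stood at 91.3, 46.5 and 77.1 CPM at 2 h and at 116 and 141 CPM at 24 h. The groups did not overlap, and the difference was 1.09 log2 units (SE 0.17, interval 0.61 to 1.58, edgeR adjusted p = 0.456), with 1.32 within experiment 2 and 0.87 within experiment 3. MIR_1208 had close replicates, with 169, 144 and 143 CPM at 2 h and 225 and 219.6 CPM at 24 h. It differed by 0.63 log2 units (SE 0.12, interval 0.28 to 0.98, edgeR adjusted p = 0.456), with 0.64 and 0.62 in the experiments. The choice by p favours such closeness here too.

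In MIR_1546, MIR_5492 and MIR_143 the 2 h library of experiment 1 was the lowest of the 5. MIR_1546 stood at 13.6, 52.3 and 54.2 CPM at 2 h and at 90.0 and 89.3 CPM at 24 h, and MIR_5492 at 33.6, 99.0 and 67.3 CPM at 2 h and at 141.0 and 141.2 CPM at 24 h. Both pairs of groups were separate, and the differences were 0.75 (SE 0.14) and 0.79 (SE 0.19) log2 units, each with an edgeR adjusted p of 0.456. MIR_143 stood at 26.3, 62.5 and 130.4 CPM at 2 h and at 96.9 and 268 CPM at 24 h. Its groups overlapped, since experiment 3 was above experiment 2 at both times, and its difference was 0.84 log2 units (SE 0.17, adjusted p = 0.456).

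MIR_844 stood at 1723, 829.6 and 1423 CPM at 2 h and at 1534 and 2310.5 CPM at 24 h. It overlapped between the times, and its blocked difference was 0.79 log2 units (SE 0.13, edgeR adjusted p = 0.456). Without the block and without replicate 3 at 24 h it was 0.211. MIR_1191 stood at 173, 209 and 317 CPM at 2 h and at 574 and 371 CPM at 24 h, without overlap, but its difference of 0.84 log2 units (SE 0.33, adjusted p = 0.541) was uneven, with 1.46 in experiment 2 and 0.23 in experiment 3. MIR_247 stood at 31.4, 21.3 and 20.2 CPM at 2 h and at 39.9 and 32.2 CPM at 24 h, with a gap of under 1 CPM between the groups and a difference of 0.79 log2 units (SE 0.16, adjusted p = 0.456).

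**Figure D3:**
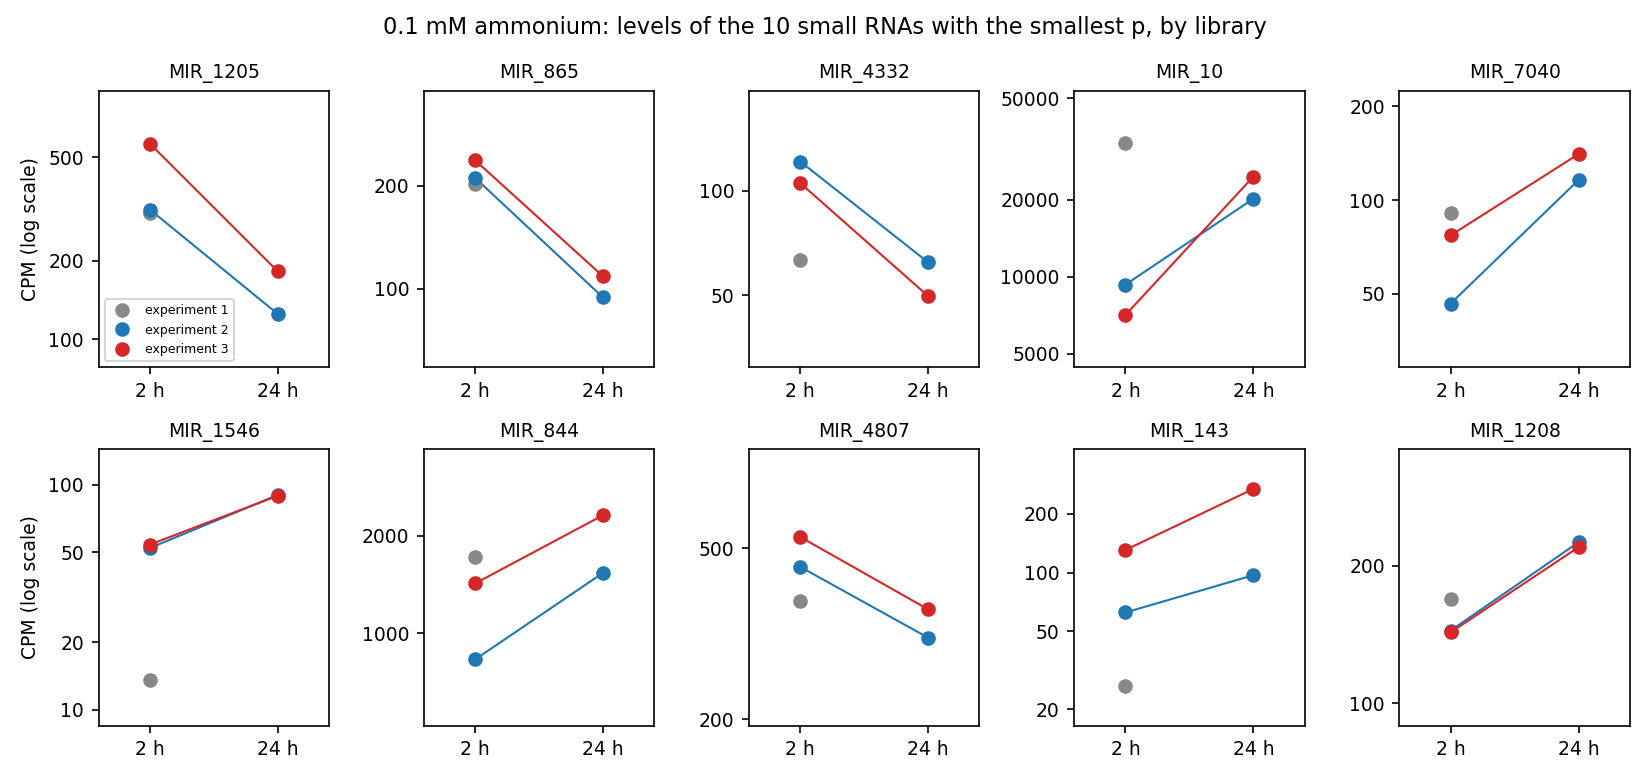
CPM (y axis, log scale) at 2 h and 24 h after 0.1 mM ammonium for the 10 small RNAs with the smallest p; each point is 1 library, coloured by experiment, and lines join the libraries of experiments 2 and 3. The choice by p favours lines that run the same way; the grey 2 h library of experiment 1, which does not enter the blocked difference, lies above both 24 h libraries for MIR_10 and far below the other libraries for MIR_1546.

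MIR_1792 and MIR_1870 are known from the comparison of times over all treatments, which used these 5 libraries, so their values here are a description and not an independent result. MIR_1792 stood at 27.0, 19.9 and 26.4 CPM at 2 h and at 35.7 and 42.1 CPM at 24 h. MIR_1870 stood at 39.5, 48.9 and 38.5 CPM at 2 h and at 67.4 and 63.5 CPM at 24 h. Both were separate between the times, with differences of 0.75 (SE 0.16, interval 0.32 to 1.19) and 0.59 (SE 0.15, interval 0.16 to 1.02) log2 units, and neither passed at 0.1 mM alone (edgeR adjusted p = 0.456 and 0.481).

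Apart from MIR_10, the blocked differences of the 10 most abundant small RNAs lay between -0.21 and 0.21 log2 units. MIR_828, the most abundant, held 191360, 177558 and 210853 CPM at 2 h and 172068 and 187516 CPM at 24 h, and differed by -0.11 log2 units (SE 0.19, interval -0.63 to 0.41). MIR_352 held 111899, 96957 and 105267 CPM at 2 h and 105297 and 110549.9 CPM at 24 h, with a difference of 0.09 (SE 0.17, interval -0.39 to 0.58). In both, the times overlapped.

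MIR_183 and MIR_353 also stayed close. MIR_183 stood at 20103, 26993 and 28732 CPM at 2 h and at 26819.7 and 27363 CPM at 24 h, with a difference of -0.04 log2 units (interval -0.46 to 0.39). MIR_353 stood at 17442, 20149.9 and 16846 CPM at 2 h and at 20483 and 15802 CPM at 24 h, with a difference of -0.03 (interval -0.45 to 0.38). In this fit both intervals exclude a difference of 0.5 log2 units in either direction. With the libraries of the other treatments added to the fit, MIR_183 was at 0.28 log2 units, so its bound depends on the fit.

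In 5 further abundant small RNAs the 2 h library of experiment 1 stood apart from the other 4 libraries of this dose. MIR_6 had 61236 CPM there against 31811 and 35269 in the other 2 h libraries and 27415 and 30644 at 24 h, and MIR_57 had 69140.5 against 24059 and 29918 at 2 h and 24270.0 and 37175 at 24 h. MIR_33 had 19063 CPM there against 9888 to 13661 in the other 4 libraries. MIR_4108 had 4951 CPM there against 15353 to 21770.3 in the others, and MIR_30 had 10233 against 14201 to 18542. The blocked differences of these 5, which are means over experiments 2 and 3, ranged from -0.21 log2 units (MIR_6, SE 0.16) to 0.21 (MIR_33, SE 0.19). In experiment 3 alone MIR_33 differed by 0.47 and MIR_57 by 0.31 log2 units, against -0.04 and 0.01 in experiment 2. All 5 had an edgeR adjusted p of 0.64 or more. For MIR_6 experiment 1 stood apart in every treatment, on the scale of 427 identifiers used below. It held 28197 to 42138 CPM in experiments 2 and 3. In experiment 1 it held 97389 and 71484 CPM after water and 82728 and 59532 after 3 mM (2 h and 24 h). In that order MIR_57 held 37737, 77044, 84134 and 80640 CPM, MIR_30 3453, 11011, 12039 and 19407, and MIR_33 8129, 12517, 17465 and 17464. MIR_4108 was listed there only after 3 mM at 2 h, at 31099 CPM.

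Together, the 10 most abundant identifiers held 46.0%, 46.6% and 48.4% of the member counts in the 2 h libraries and 47.8% and 47.7% in those at 24 h. The mean differed by 0.693 percentage points (exact permutation p = 0.6, two-sided), and the smallest p that 2 libraries against 3 allow is 0.1, so this test could not pass 0.05.

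The 5 identifiers of at least 100 CPM whose intervals lay closest around 0 were chosen for that closeness. They mark the tightest bounds reached among such identifiers and not a usual one. MIR_4608 stood at 608, 465 and 454 CPM at 2 h and at 463 and 456 CPM at 24 h, and its interval ran from -0.34 to 0.34 log2 units. MIR_4586 stood at 1861, 2132 and 1980.2 CPM at 2 h and at 2147 and 1965 CPM at 24 h (interval -0.35 to 0.35). MIR_4769 stood at 769, 862 and 846 CPM at 2 h and at 852 and 841 CPM at 24 h (interval -0.36 to 0.33). MIR_1219 and MIR_4297 had intervals of -0.35 to 0.35 and -0.33 to 0.36. For these, differences beyond 0.36 log2 units lay outside the interval, and the median half-width of the interval over all 879 was 0.42.

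The experiments were then set beside each other. Of the 879 identifiers, 526 (59.8%) had the same sign within experiments 2 and 3, 251 higher and 275 lower at 24 h, and 353 had opposite signs. Across identifiers, the differences within experiment 2 and experiment 3 correlated at 0.153 (Pearson, n = 879), a description over small RNAs that share libraries and are not independent. The share with the same sign was 57.9% in the class of 10 to under 100 CPM and 75.0% among the 16 most abundant.

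**Figure D4:**
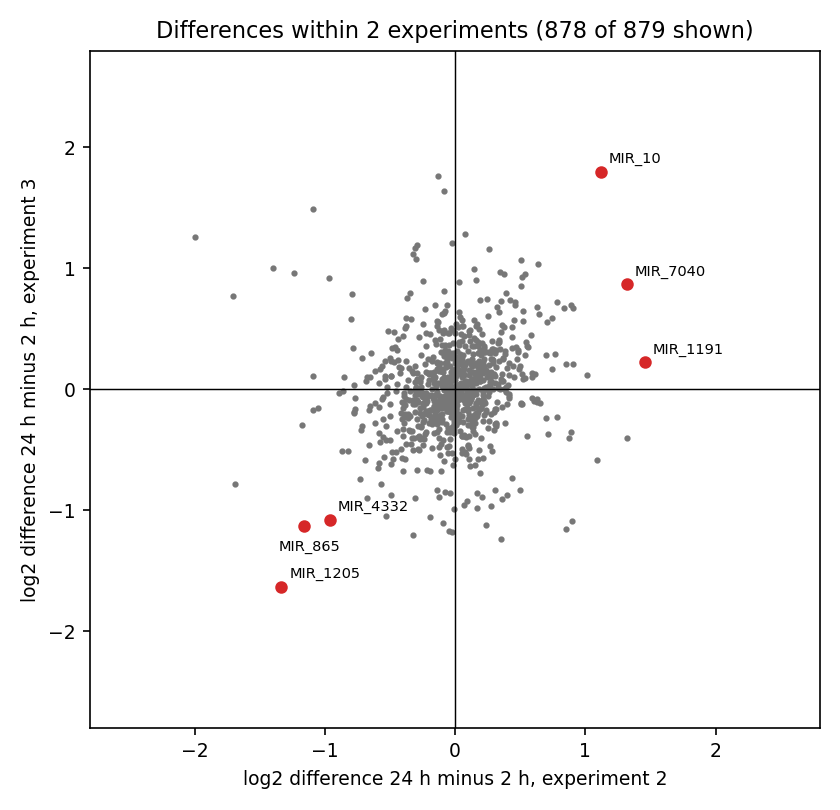
Log2 difference between 24 h and 2 h within experiment 3 (y axis) against that within experiment 2 (x axis); each point is 1 small RNA, and MIR_839, at -7.41 in experiment 3, is outside the frame (878 of 879 shown). The cloud is centred on 0, and MIR_10, MIR_7040, MIR_1205, MIR_865 and MIR_4332 (red) lie far from 0 in both experiments, while MIR_1191 lies far from 0 in experiment 2 only.

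Replicate 1 at 24 h, left out of the test, listed 162 of the 879 identifiers (18.4%). The median of the mean CPM was 128 for the listed identifiers and 149.5 for the others. On CPM scaled to these 162 in 6 libraries, experiment 1 differed between 24 h and 2 h by a median of -0.08 log2 units, with a median absolute difference of 0.25 against 0.16 and 0.21 for the same identifiers in experiments 2 and 3. For 88 of the 162 the sign was that of the blocked difference, as for 6 of the 10 listed with an unadjusted p under 0.05. It was so for 17 of the 27 listed identifiers whose groups did not overlap, but their choice used the 2 h library of experiment 1. That library also enters the difference of experiment 1, which favours an equal sign among those 27.

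Of the small RNAs with the smallest p or the largest non-overlapping differences, this library listed 3. On the scale of the 162 identifiers, MIR_143 went from 60.0 to 193 CPM in experiment 1 (1.68 log2 units), MIR_247 from 71.5 to 143 CPM (1.00 log2 units) and MIR_1208 from 385 to 466 CPM (0.28 log2 units). MIR_247 was named for groups that did not overlap, a choice that used the 2 h library of experiment 1. MIR_30 stood at 23332 CPM at 2 h and 41897 CPM at 24 h in experiment 1 (0.84 log2 units). MIR_828 and MIR_352 differed by 0.16 and -0.03 log2 units. MIR_1205, MIR_865, MIR_10 and MIR_7040 were not listed there.

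The change with time at 0.1 mM was next compared with the change with time after water and at 3 mM, to ask whether it belongs to this dose. Against water, 529 identifiers listed by all 11 libraries were tested for an interaction of dose and time with the experiment as a block. edgeR called 0 (0% of those tested), with 19 (3.59%) below 0.05 before adjustment and 26.4 expected, and limma and DESeq2 called 0. Against 3 mM, for which 2 libraries at 24 h (replicates 1 and 3) were usable, 551 identifiers listed by all 10 libraries were tested. The 24 h libraries thus came from experiments 2 and 3 at 0.1 mM and from experiments 1 and 3 at 3 mM. Among the libraries used, only experiment 3 had both times in both of these treatments. edgeR called 0 (0%), with 44 (7.99%) below 0.05 before adjustment and 27.6 expected, limma called 0 and DESeq2 called 1, MIR_1205.

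The median sizes of the changes with time were alike in these fits, which does not make them the same changes. The median absolute interaction was 0.16 log2 units against water (median SE 0.24) and 0.19 against 3 mM (median SE 0.24). The median absolute change between 2 h and 24 h was 0.14 log2 units at 0.1 mM and 0.12 after water in the first, and 0.15 at 0.1 mM and 0.14 at 3 mM in the second. The interval of the interaction was wholly between -1 and 1 for 411 of 529 identifiers against water and for 376 of 551 against 3 mM.

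MIR_1205 had the smallest p against 3 mM and was among the 5 smallest against water. To set treatments side by side, CPM was scaled to the 427 identifiers listed by all 16 well-listed libraries after irrigation. On that scale MIR_1205 stood at 351, 371 and 663 CPM at 2 h and at 147 and 217 CPM at 24 h after 0.1 mM. After water it stood at 137, 238 and 185 CPM at 2 h and at 309, 309 and 113 CPM at 24 h, and after 3 mM at 172, 154 and 448 CPM at 2 h and at 211 and 444 CPM at 24 h. The 2 h libraries at 0.1 mM were thus all above the 2 h libraries after water, and the 24 h libraries lay within the range of the other treatments.

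Its change with time was -1.47 log2 units at 0.1 mM and 0.28 at 3 mM, a difference of -1.75 (SE 0.30, interval -2.46 to -1.04, edgeR adjusted p = 0.358; DESeq2 adjusted p = 0.000171). Against water the difference was -1.61 (SE 0.66, interval -3.11 to -0.10, edgeR adjusted p = 0.995). Leaving out 3 mM at 2 h replicate 3 brought MIR_1205 and MIR_844 past the edgeR threshold against 3 mM (smallest adjusted p = 0.0346). MIR_844 changed by 0.80 log2 units at 0.1 mM and by -1.13 at 3 mM.

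Against water, the smallest p belonged to MIR_86, whose change with time was 0.48 log2 units at 0.1 mM and -0.54 after water, a difference of 1.02 (SE 0.27, interval 0.41 to 1.63, edgeR adjusted p = 0.995). On the scale of 427 identifiers it stood at 17626, 10244 and 8811 CPM at 2 h and at 10579.9 and 13286 CPM at 24 h after 0.1 mM, and after water at 41367, 15311 and 14064 CPM at 2 h and at 29561, 9414 and 10539 CPM at 24 h. Experiment 1 was the highest in each group that has it. The other small p values were those of MIR_5084, MIR_1680 and MIR_5214, with differences of -0.57, -0.50 and 0.48 log2 units and edgeR adjusted p of 0.995.

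Against 3 mM, MIR_5125, MIR_4650, MIR_4748 and MIR_461 followed MIR_1205, each with an edgeR adjusted p of 0.568. MIR_5125 stood at 96.1, 80.5 and 88.8 CPM at 2 h and at 120.3 and 123 CPM at 24 h after 0.1 mM, and at 138, 123 and 117 CPM at 2 h and at 113 and 108 CPM at 24 h after 3 mM. The times were separate in both treatments and in opposite order, a difference in change of 0.76 log2 units (SE 0.17, interval 0.36 to 1.17). For MIR_4650, MIR_4748 and MIR_461 the differences were 0.805, 0.681 and 0.949 log2 units, with the change positive at 0.1 mM and negative at 3 mM in each.

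**Figure D5:**
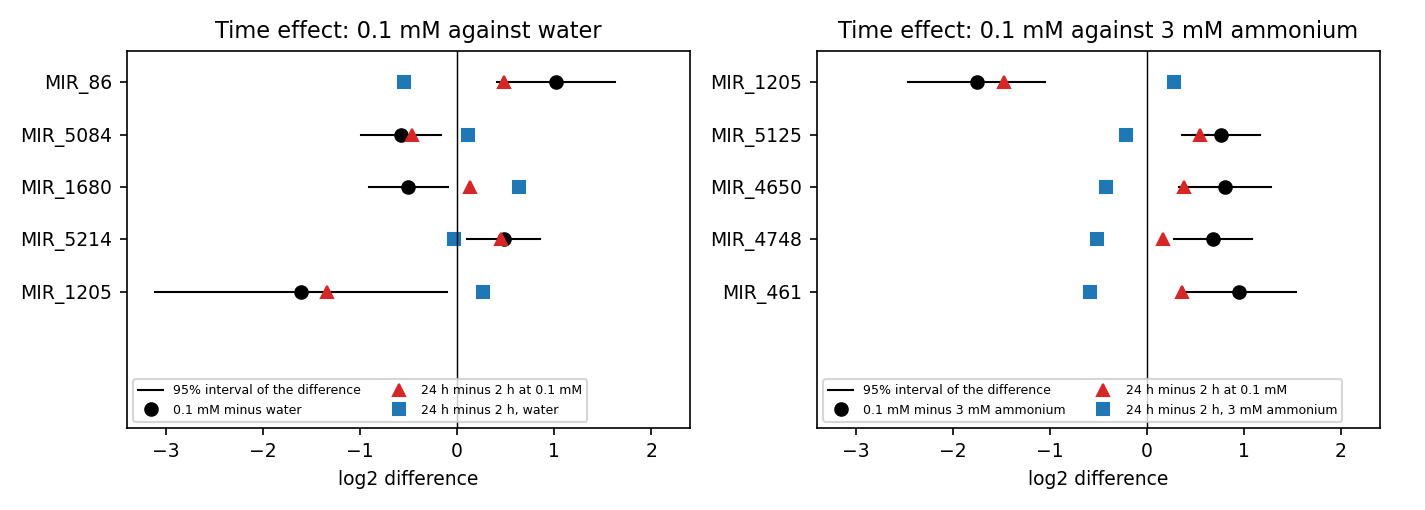
Change between 2 h and 24 h in log2 units (x axis) at 0.1 mM ammonium (red triangles) and after water or 3 mM ammonium (blue squares) for the 5 small RNAs with the smallest interaction p in each comparison, with the difference between the changes (black circles) and its 95% interval (lines). The symbols for the treatments lie on opposite sides of 0 except for MIR_1680, and none of the differences passed the edgeR test.

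Other small RNAs named above were set beside the other treatments in the same way. In the interaction fits MIR_7040 changed with time by 0.88 log2 units at 0.1 mM and 0.49 after water, and by 0.95 at 0.1 mM and -0.02 at 3 mM. MIR_1208 changed by 0.52 at 0.1 mM and 0.13 after water, and by 0.58 at 0.1 mM and 0.06 at 3 mM. MIR_865, MIR_4332 and MIR_1546 were not listed by all libraries of either fit. MIR_10, listed by all libraries of the fit with 3 mM, changed by 1.17 at 0.1 mM and -0.66 at 3 mM. At 3 mM, scaled to the 427 identifiers, it went from 42811 to 18382 CPM in experiment 1. In experiment 3 it went from 23863 to 22412 CPM. MIR_839 stood at 25.4 CPM in the single low library on the scale of 427 identifiers and at 1977 to 4923 CPM in the other 15 libraries. MIR_1792 changed by 0.73 log2 units at 0.1 mM and 0.46 after water, and MIR_1870 by 0.61 and 0.49, and in the fit with 3 mM the changes were 0.76 and 0.77 for MIR_1792 and 0.64 and 0.64 for MIR_1870.

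Some small RNAs were listed at 1 time only by the 5 libraries and stand outside the 879. Of the 12866 identifiers listed by any of the 5 libraries, 96 were listed by all 3 libraries at 2 h and by neither at 24 h, and 251 by both libraries at 24 h and none at 2 h. These counts cannot be set against each other because the groups hold 3 and 2 libraries. The most abundant of each kind, chosen after their values were seen, were MIR_53, with 8523, 15098 and 19483 counts at 2 h, and MIR_13840, with 21150 and 7444 counts at 24 h. Replicate 1 at 24 h listed neither of these, but it listed MIR_4953 and MIR_4839 of the 2 h group, with 1872 and 869 counts, and MIR_9127 of the 24 h group, with 2273. Since a 0 is not a measured absence in this table, no fold is given.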

How the data were processed

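The authors deposited whole-number read counts, not normalised, for 32711 serial identifiers in 21 libraries. The tools named there, per the submitters' processing notes, are bcl2fastq and edgeR. Which aligner, build, miRNA caller or filter made the table is not given in the sources used here. Gel-selected small RNA was sequenced from TruSeq libraries, per the labels' protocols. Column names were matched to the titles, since the descriptions of 2 libraries at 24 h end differently. The members, lists and tests were chosen with earlier results of these data known.

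Counts of the 879 identifiers above 0 in all 5 libraries were scaled with TMM and tested in R 4.3.3 by quasi-likelihood F test (edgeR 4.0.16), with experiment as a block, two-sided, with Benjamini-Hochberg adjustment over all identifiers tested. Sizes, SE and 95% intervals are from limma 3.58.1 on log2 CPM (prior count 0.5, trended). DESeq2 1.42.0 was an alternative. The tests were checked on simulated counts drawn with the same spread for all identifiers, which is simpler than the data. Depth was 6409777 to 9603954 counts, but member counts went down to 7, where counting error was not measured apart from the spread between libraries. The block removes differences in level between experiments, so the intervals do not cover these. They cover the spread left between pools of seedlings after the block and the groups are fitted. In the comparison of the 5 libraries this spread rests on 1 residual degree of freedom. It is moderated by the spread of all identifiers (prior degrees of freedom 2.92).

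The labels say that each experiment was an independent run, so equal numbers pair libraries, and deviations of experiments 2 and 3 from the group means correlated at 0.139 between the times over 879 identifiers. Identifiers were named by 7 criteria: up to 15 per direction past the threshold without overlap; failing 5 such, the 10 with the smallest p; the 10 most abundant; the 10 with the largest non-overlapping differences of equal sign in both experiments; the 5 of at least 100 CPM with intervals closest around 0; MIR_1792 and MIR_1870; and the 5 with the smallest p of each interaction. Others were chosen after their values were seen. Where groups do not overlap, the signs within experiments 2 and 3 are equal by construction. A well-listed library lists at least 50% of the identifiers listed by at least 10 others. Alternatives were other scalings and tools, a filter of 100 CPM, no block, more libraries, 0 taken as a count, and each library left out.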

Additional observations from a re-analysis of the deposited data

How the results depend on the processing

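The count of 0 small RNAs between 24 h and 2 h held with RLE, upper-quartile and no factors, with library totals, with a mean of at least 100 CPM, with limma and limma-voom, with all well-listed libraries after irrigation, with their unlisted values missing, and with 0 taken as a count (smallest adjusted p 1, edgeR). DESeq2 called 4. Without the replicate block edgeR called 0, with 52 identifiers (5.92%) at an unadjusted p under 0.05 against 83 (9.44%) with it. Other alternatives that kept 2 libraries at 24 h gave 29 to 88. These tested 427 to 4916 identifiers, and the shares were 0.936% to 10% of those tested. With library totals 37.3% of identifiers were higher at 24 h, against 48.5% with TMM. Leaving out each library gave 0 to 1 calls, the 1 being MIR_839 without replicate 2 at 24 h. These refits have no block except without replicate 1 at 2 h, because no residual degrees of freedom remain, and a library alone in its group is assumed to vary like the others. In 2 refits chosen after the data were seen, which pool all well-listed libraries with the block, the count was 1 without replicate 2 and 0 without replicate 3. Against water, leaving out each library gave 0 to 1 calls (MIR_839), and against 3 mM 0 to 2, with 1 (MIR_839) without 0.1 mM at 24 h replicate 2, 2 (MIR_1205 and MIR_844) without 3 mM at 2 h replicate 3 and 1 (MIR_743) without 3 mM at 24 h replicate 3. DESeq2 called 1 against 3 mM, and the interactions without the replicate block called 0 and 0.

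The difference in the share of the top identifiers turned from 0.693 points to -1.03 with the 5 most abundant and -0.406 with the 20 most abundant, and was 0.189 to 1.4 points with a library left out. Some differences close to 0 changed sign in edgeR log2 units. Without the replicate block MIR_57 was at -0.418, MIR_183 at 0.1, MIR_33 at -0.139, MIR_4608 at -0.147, MIR_1219 at 0.0933, MIR_4586 at 0.0464, MIR_4297 at -0.0264 and MIR_4769 at 0.0361. With upper-quartile factors MIR_183 was at 9.02e-05, MIR_353 at 0.00565, MIR_1219 at 0.0391, MIR_4586 at 0.0396 and MIR_4769 at 0.0275. With library totals MIR_4108 was at -0.0137, MIR_4608 at -0.0733 and MIR_4297 at -0.0628, and with no factors MIR_4608 was at -0.0204 and MIR_4297 at -0.00993. With all well-listed libraries MIR_183 was at 0.283, MIR_30 at -0.0415, MIR_33 at -0.0417, MIR_4586 at 0.00803 and MIR_4769 at 0.000227, and with their unlisted values missing MIR_183 was at 0.384, MIR_30 at -0.0556, MIR_33 at -0.025, MIR_4608 at -0.0273, MIR_4586 at 0.008, MIR_4297 at -0.0784 and MIR_4769 at 0.00025. With RLE factors MIR_1219 was at 0.00793 and MIR_4586 at 0.00849, with DESeq2 they were at 0.00794 and 0.00849, with 0 taken as a count MIR_1219, MIR_4586 and MIR_4769 were at 0.0138, 0.0143 and 0.00221, and with at least 100 CPM MIR_4608 was at -0.000118.

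With a library left out, the ranges of those that changed sign were -0.168 to 0.000831 for MIR_828, -0.758 to 0.26 for MIR_57, -0.0399 to 0.316 for MIR_183, -0.178 to 0.175 for MIR_353, -0.277 to 0.476 for MIR_30, -0.36 to 0.212 for MIR_33, -0.184 to 0.000462 for MIR_4608, -0.000894 to 0.227 for MIR_1219, -0.0438 to 0.122 for MIR_4586, -0.0807 to 0.0465 for MIR_4297 and -0.0125 to 0.0917 for MIR_4769. Among the others named, ranges that reached over 1.5 times from the main value were -1.66 to -0.982 for MIR_1205, -1.02 to -0.569 for MIR_4332, 0.107 to 1.46 for MIR_10, 0.512 to 1.09 for MIR_7040, 0.752 to 1.47 for MIR_1546, 0.123 to 1.1 for MIR_844, -0.553 to -0.272 for MIR_4807, 0.402 to 2.07 for MIR_143, 0.686 to 1.34 for MIR_1191, -1.02 to -0.427 for MIR_565, 0.787 to 1.5 for MIR_5492, 0.434 to 0.852 for MIR_247, -0.705 to -0.0257 for MIR_6, 0.00809 to 0.0991 for MIR_352, 0.0601 to 0.952 for MIR_4108 and -7.21 to -0.612 for MIR_839. Apart from MIR_839, none of these values passed a test, and the cause of the sign changes was not tested. The 10 identifiers with the smallest p kept their sign in every alternative that could be fitted. They were chosen by p in these same libraries, which favours a kept sign. Their differences went down to 0.107 log2 units for MIR_10 and 0.123 for MIR_844.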

Other observations

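A few values lay far from an identifier's usual level. Among the 427 small RNAs listed by all 16 well-listed libraries after irrigation, 7 of the 6832 values lay more than 3 log2 units from the identifier's own median, 4 below and 3 above. MIR_839 had 119 counts in 0.1 mM at 24 h replicate 3, against a median of 14725 over the 16 libraries, a distance of -7.09 log2 units. MIR_4743 had 282 counts in 3 mM at 2 h replicate 1 against a median of 41932 (-7.03), MIR_4510 had 212 in 3 mM at 2 h replicate 3 against 2045.5 (-3.41), and MIR_743 had 41 in 3 mM at 24 h replicate 1 against 599.5 (-3.72). The 3 values above all belonged to MIR_320, with 773 counts in 0.1 mM at 2 h replicate 1, 579 in 3 mM at 2 h replicate 1 and 5534 in water at 2 h replicate 2, against a median of 41. These identifiers were chosen after their values were seen. None of the 16 libraries held more than 2 of the 7 values.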
